A study of Mus musculus with 9 samples.

Results

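The mitochondrial ribosomal protein genes, whose symbols are Mrps or Mrpl followed by a number and at most 1 letter, were followed through mouse neutrophils of 3 anatomical compartments. The deposited table listed 46517 genes, and 77 of them had such a symbol, 29 of the Mrps kind and 48 of the Mrpl kind, after 5 pseudogenes with a -ps ending were left out. No member was listed more than once. The neutrophils came from C57BL/6 orthotopic transplanted (OT) mice, taken on day 27 after cells of a luciferase-expressing pancreatic ductal adenocarcinoma (PDAC) line had been injected into the pancreas. Bone marrow, blood and tumor each gave 3 libraries, every library was a pool of 5 OT mice, and all mice of the 3 groups carried the tumor. The sort kept live CD45+ cells that carried Ly6G and Ly6C and lacked CD3, B220 and NK1.1, the bone marrow samples being labelled Ly6G.hi and the blood and tumor samples Ly6G.p. The tumor model rests on a single transplanted line, and no tumor-free mice entered the comparison.

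Mitochondria keep a ribosome of their own, which translates the few membrane proteins of the respiratory chain and ATP synthase that are encoded by mitochondrial DNA. Its protein subunits are encoded in the nucleus, made in the cytosol and imported. Some descend from bacterial ribosomal proteins and others were added in the mitochondrial lineage. Mature neutrophils are known for a sparse mitochondrial network and for a reliance on glycolysis, while their bone marrow precursors divide and hold more mitochondria.

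The libraries held between 4580807 and 7949367 reads on genes, as recovered from the deposited values. Of these, 2631 to 7730 reads per library fell on members, and the median member had 42 to 59 reads in a bone marrow library, 16.5 to 20 in a blood library and 62 to 70 in a tumor library. Neutrophil-defining genes such as Ly6g, S100a8 and Cxcr2 were detected, and the 9 on the list summed to 34488 to 36095 RPM (reads scaled to a common library total) in bone marrow and 33014 to 34359 in blood, against 11763 to 14173 in tumor. The tumor libraries also carried epithelial, fibroblast and acinar transcripts: the 11 tumor epithelium markers summed to 2946 to 6292 RPM there, against 8.02 to 11.8 in bone marrow and 21.6 to 149 in blood, where blood replicate 2 was the highest. The 9 fibroblast markers summed to 1126 to 1387 RPM and the 9 acinar markers to 659 to 2763 RPM in tumor, against at most 9.99 RPM of either list in any other library. None of these markers was at 0 in the tumor group, while 1 fibroblast and 1 acinar marker were at 0 in all bone marrow and blood libraries. Cell cycle genes moved with compartment too, with 929 to 1242 RPM in bone marrow, only 58.7 to 64.7 in blood, and 522 to 817 in tumor.

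Promoter sequence gives a first view of what the members have in common. RefSeq windows on GRCm38.p6 were found for 68 of the 77 members, 74 windows in all, each reaching from 250 bases before a gene's start to 50 bases after it. Motifs of 3 factors linked in textbooks to nuclear genes for mitochondrial proteins or for housekeeping functions were searched on both strands. The NRF1 core, GCGCNTGCG, was present in 18 of the 74 windows (24.3%), against 11.3% of the windows of genes that reached 5 reads in some library and 6.31% of all windows. The ETS motif CCGGAAGT was present in 12 windows (16.2%, against 6.87% and 3.89%) and the YY1 motif AAGATGGC in 12 windows (16.2%, against 3.84% and 2.75%). TATAAA, by contrast, was present in 5 windows (6.76%, against 8.28% and 13.6%). Of the 12 YY1 matches, 8 began 11 to 36 bases after the start and all 8 read along the gene's strand, whereas the 26 NRF1 matches had their median at -42.5 bases from the start. Such placement was also common in the genes that reached 5 reads in some library. There 288 of 584 YY1 matches (49.3%) began after the start, 242 of them along the gene's strand, and the NRF1 median was -57.

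The 150 bases before the start are shown for 7 members with contrasting values: Mrpl45 and Mrps27, low in blood, Mrpl17 and Mrpl9, high in tumor, Mrpl10 and Mrpl43, low in tumor, and Mrpl50, whose rise in tumor had the lowest adjusted p of any member. They run 5′ to 3′ along the gene's strand, with matches to the NRF1 core and ETS motifs in capitals. They lie at chr11:97315566-97315715 (Mrpl45, plus strand), chr13:99344636-99344785 (Mrps27, plus), chr7:105811088-105811237 (Mrpl17, minus), chr3:94443186-94443335 (Mrpl9, plus), chr11:97041432-97041581 (Mrpl10, plus), chr19:45006443-45006592 (Mrpl43, minus) and chr4:49521084-49521233 (Mrpl50, minus).
Mrpl45: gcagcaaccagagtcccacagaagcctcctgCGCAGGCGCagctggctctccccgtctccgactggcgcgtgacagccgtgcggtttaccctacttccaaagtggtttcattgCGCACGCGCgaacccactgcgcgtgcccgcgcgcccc
Mrps27: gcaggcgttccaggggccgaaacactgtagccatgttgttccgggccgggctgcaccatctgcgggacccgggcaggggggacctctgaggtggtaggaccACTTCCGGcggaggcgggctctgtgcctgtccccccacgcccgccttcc
Mrpl17: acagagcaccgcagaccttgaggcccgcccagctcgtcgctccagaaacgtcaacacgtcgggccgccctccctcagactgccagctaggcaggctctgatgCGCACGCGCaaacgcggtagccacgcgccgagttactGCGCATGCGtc
Mrpl9: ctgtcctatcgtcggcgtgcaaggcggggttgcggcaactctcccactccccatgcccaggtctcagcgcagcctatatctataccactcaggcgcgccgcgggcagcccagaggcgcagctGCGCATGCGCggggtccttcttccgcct
Mrpl10: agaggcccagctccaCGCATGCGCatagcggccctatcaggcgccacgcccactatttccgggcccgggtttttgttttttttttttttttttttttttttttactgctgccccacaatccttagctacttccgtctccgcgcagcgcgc
Mrpl43: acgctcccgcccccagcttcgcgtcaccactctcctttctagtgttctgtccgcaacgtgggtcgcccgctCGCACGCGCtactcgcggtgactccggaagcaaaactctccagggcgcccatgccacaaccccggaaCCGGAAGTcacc
Mrpl50: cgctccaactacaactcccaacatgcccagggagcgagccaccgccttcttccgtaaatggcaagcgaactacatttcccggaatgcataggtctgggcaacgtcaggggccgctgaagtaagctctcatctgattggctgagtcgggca
The NRF1 core stood before Mrpl45, Mrpl17 and Mrpl9 as well as before Mrpl10 and Mrpl43, so members that were high and members that were low in tumor neutrophils shared it. Mrps27 and Mrpl43 each had 1 ETS match, and Mrpl50 had no match to the NRF1, ETS or YY1 letters in these bases.

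Members were scattered over 17 chromosomes, with at most 10 on one of them, chromosome 11. A protein-coding gene ran the opposite way from a start within 1000 bp of the start of 23 of the 77 members (29.9%), 5 of these starts lying inside the member, against 10.9% of the protein-coding genes that reached 5 reads in some library. Exons of 32 members overlapped exons of another annotated gene, and for 18 members the overlap exceeded 10% of their exon bases, so part of their reads could belong to the other gene. Mrpl53, which had no read in any library, was overlapped over 88.0% of its exon bases.

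Levels among members spread widely. The deposited FPKM (fragments scaled to gene length and library size) divided reads by the whole gene span, introns included, for 57 of the 77 members, which lowers genes with long introns, so members were ranked by an FPKM recomputed on exon length instead. Mrpl10, the protein at the base of the ribosomal stalk, stood highest with a mean of 31.1 on this exon scale. Mrpl43 (17.6), Mrpl4 (15.3), Mrpl18 (14.8) and Mrps15 (14.3) followed, and Mrps34 (0.652) and Mrpl13 (0.570) stood lowest among the 76 members with reads. Mrpl10 was at 33.0 ± 1.07 (SD, n = 3) in bone marrow and 38.0 ± 3.07 in blood, against 22.3 ± 2.61 in tumor. On the deposited scale the order differed, Mrpl43 coming first and Mrpl10 only 3rd.

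**Figure D1:**
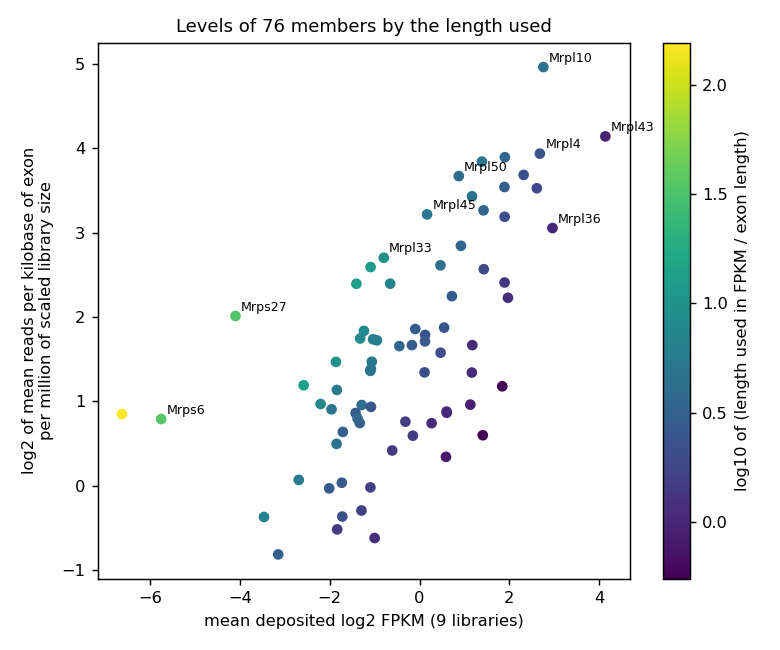
Mean deposited log2 FPKM (x axis) against the log2 of the mean FPKM recomputed on exon length (y axis) for the 76 members with reads; color is the log10 ratio of the length used in FPKM to the exon length. Members with long introns such as Mrps6 and Mrps27 lie far to the left of members with the same exon-based level, and Mrpl10, at 31.1 on the linear exon scale, is the highest point.

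Members as a group were low in blood neutrophils. Their median log2 FPKM was -0.05, -0.08 and 0.21 in the 3 bone marrow libraries, -1.01, -1.16 and -1.25 in the blood libraries, and 0.48, 0.30 and 0.25 in those from tumor. Blood therefore lay apart from both other compartments, while tumor lay above bone marrow by less than it lay above blood. The genes that reached 5 reads in some library had medians of -1.50, -1.60 and -1.53 in bone marrow and -1.79, -1.76 and -1.88 in blood. In tumor their medians were -1.08, -1.09 and -1.01, so all genes stood higher there as well. Summed RPM of the members were 730, 690 and 854 in bone marrow, 574, 508 and 474 in blood, but 1224, 941 and 1188 in tumor. RPM rest on plain library totals, whereas the log2 FPKM rest on library sizes scaled by the authors, by larger factors in tumor. The 2 measures are thus not on the same scale. In bulk libraries like these, fewer cells of a type and less RNA per cell cannot be told apart.

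**Figure D2:**
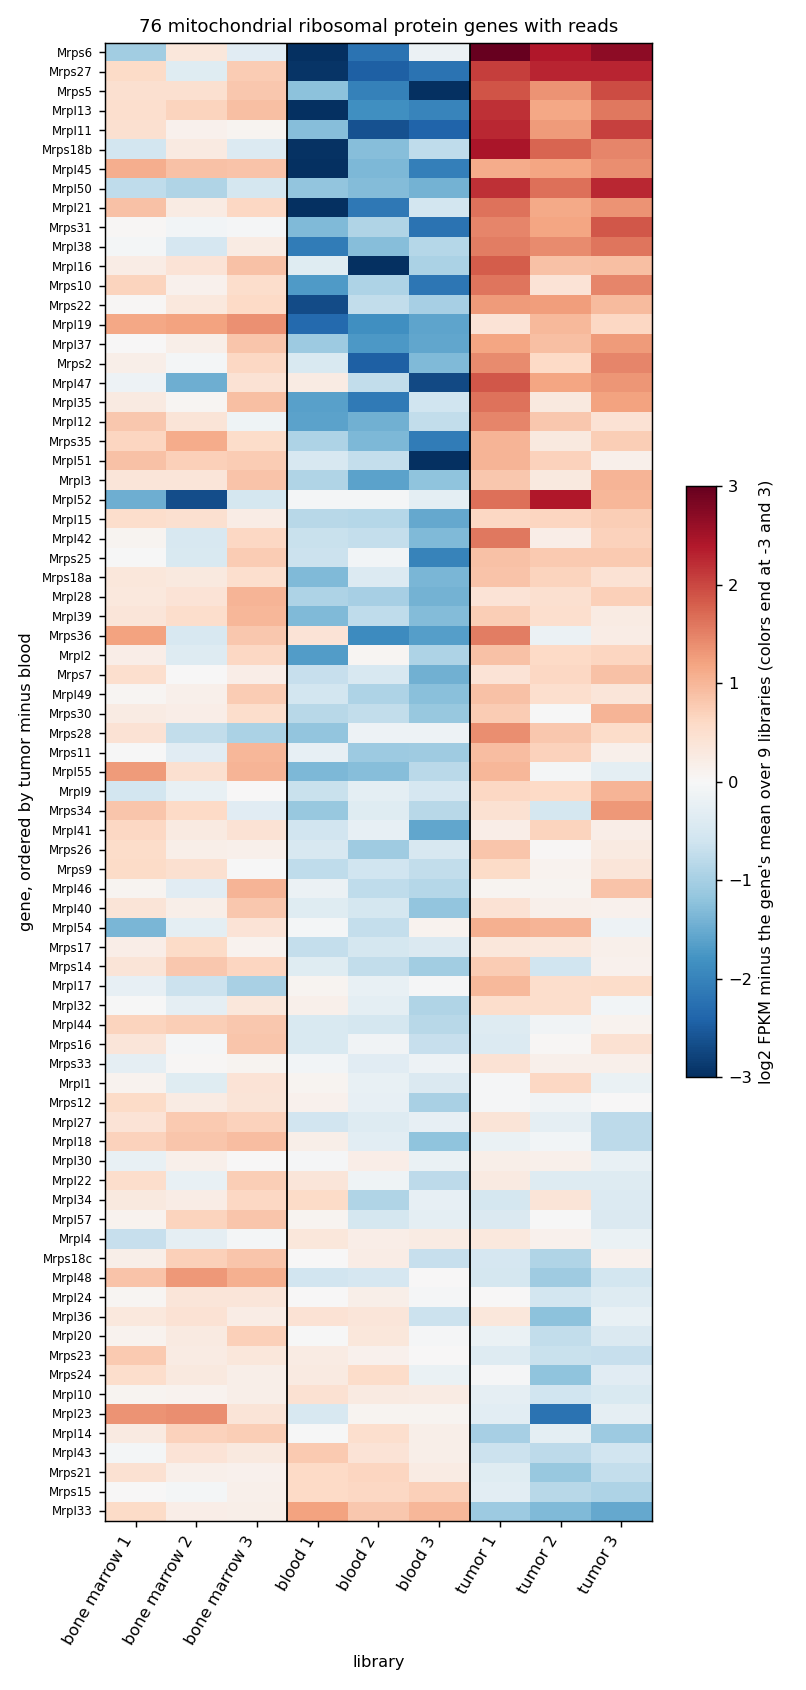
Log2 FPKM of the 76 members with reads, each minus its own mean over the 9 libraries (color, ending at -3 and 3), with libraries in columns and members in rows ordered by the tumor minus blood difference. The upper rows are blue in the 3 blood columns and red in the tumor columns, and the last rows, such as Mrps15 and Mrpl33, are blue in tumor.

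Of the 76 members with reads, 36 had all 3 blood libraries below the other 6 libraries, a pattern seen in 13.8% of the 17714 genes that reached 5 reads in some library. All 3 tumor libraries lay above the other 6 for 22 members, against 25.2% of genes, a share close to the background. The opposite, all tumor libraries below the other 6, held for 8 members (Mrpl10, Mrpl14, Mrpl20, Mrpl33, Mrpl43, Mrps15, Mrps21 and Mrps23), against 14.6% of genes. Bone marrow stood above the other 6 for 8 members, among them Mrpl18, Mrpl48 and Mrps12, against 10.7% of genes. Blood stood above the other 6 for Mrpl10, Mrpl33 and Mrps15 (12.3% of genes), and bone marrow below them for Mrpl17 and Mrpl52 (6.88% of genes). These counts shifted with scaling: on plain library totals, 39 members had blood lowest (16.2% of genes), 33 had tumor highest (33.2% of genes) and 1 had tumor lowest (8.53% of genes).

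Between bone marrow and blood, far more members fell than rose. Among the 42 members above 0 on the log2 FPKM scale in at least 3 libraries, 21 were down-regulated in blood and 2 up-regulated at an adjusted p under 0.05 (limma, Benjamini-Hochberg over the 7794 genes that passed this filter); of all genes tested, 23.6% were lower and 20.6% higher. Under a filter asking for 5 reads in any 1 library (the filter on reads), which 76 members passed, 36 were lower and 2 higher, against 16.3% and 12.6% of 17714 genes. The median log2 fold change of these 76 members was -1.08 and that of all genes 0.00, and 66 of the 76 values were negative.

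Mrpl19, a large subunit protein with a bacterial homolog, showed the deepest drop. It measured 0.84, 0.89 and 1.06 log2 FPKM in bone marrow and -2.64, -2.15 and -1.90 in blood, where 5 to 10 reads were left of 85 to 112. The groups did not overlap, and Mrpl19 fell by 3.16 on the log2 scale (SE 0.26, adjusted p = 7.84e-05, limma). Of its exon bases, 36.0% overlapped Gcfc2. Mrpl45, a mitochondria-specific protein near the exit of the nascent chain that ties the ribosome to the inner membrane, measured 1.26, 1.05 and 1.02 in bone marrow and -2.97, -1.17 and -1.87 in blood. The blood libraries of Mrpl45 spread over 1.80 log2 units from lowest to highest yet stayed below the bone marrow libraries, and the gene fell by 3.12 (SE 0.41, adjusted p = 0.000711). Mrpl51 measured 1.15, 0.99 and 1.02 in bone marrow and -0.22, -0.46 and -2.72 in blood, a fall of 2.19 (SE 0.62, adjusted p = 0.0227) to which blood replicate 3, with 3 reads, gave the lowest value. The call for Mrpl51 was lost without any 1 of the 3 bone marrow libraries, at adjusted p values up to 0.0634. Mrpl55, another large subunit protein, measured 0.83, 0.04 and 0.58 in bone marrow and -1.80, -1.72 and -1.25 in blood, and fell by 2.07 (SE 0.39, adjusted p = 0.0039). It reached the first filter only with its bone marrow libraries, where it was high. The filter on reads also called it lower.

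Mrps15 and Mrpl4, both with bacterial homologs, went the other way. Mrps15 measured 1.41, 1.33 and 1.55 in bone marrow and 1.99, 2.01 and 2.10 in blood, and Mrpl4 measured 1.98, 2.40 and 2.62 against 3.02, 2.89 and 2.93. Every blood library of each gene lay above every bone marrow library, with log2 fold changes of 0.61 (SE 0.18, adjusted p = 0.025) for Mrps15 and 0.61 (SE 0.19, adjusted p = 0.0314) for Mrpl4. Both calls were fragile: each was lost when any 1 of 5 libraries was left out, all of these blood or bone marrow libraries, with adjusted p values up to 0.0759 for Mrps15 and 0.0873 for Mrpl4.

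Beside these differences, cell cycle genes fell in blood as well, 16 of 16 under the filter on reads with a median log2 fold change of -5.66, and so did 10 of 10 genes of primary and secondary granules (median -6.30). Other cells' markers were higher in blood: 5 of 5 platelet markers rose (6.89 to 11.2 RPM summed in bone marrow, 441 to 601 in blood), as did 5 of 6 red cell markers (26.8 to 56.7 and 245 to 471 RPM) and 5 of 7 lymphocyte markers (25.6 to 48.7 and 63.4 to 114 RPM). Of 8 macrophage markers 2 rose (319 to 345 and 1090 to 1256 RPM), and of 6 endothelial markers 2 rose (10.8 to 18.2 and 85.3 to 123 RPM). The part of any of these in the members' values was not tested. Under the filter on reads, 16.3% of all genes were lower and 12.6% higher in blood than in bone marrow.

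Between blood and tumor, most members rose. Of the 42 members, 24 were up-regulated and 5 down-regulated in tumor neutrophils, against 28.1% and 34.5% of all genes tested, and under the filter on reads 44 of 76 were higher and 7 lower, against 32.4% and 20.2%. Among members named below, Mrpl50, Mrpl38, Mrpl16 and Mrps18b were above 0 log2 FPKM in fewer than 3 libraries outside tumor. They passed the first filter through the group where they were high, and are among the 24. The filter on reads also called them higher, with the authors' scaling and with plain library totals. The median log2 fold change of the 76 members was 1.29 against 0.50 for all genes. The deposited values rest on library sizes that the authors scaled, by factors of 0.796 to 0.881 in bone marrow and 0.818 to 0.863 in blood but 1.08 to 1.22 in tumor. On plain library totals 51 members were higher and 4 lower, against 40.1% and 14.1% of genes, and the medians moved to 1.73 for members and 0.89 for all genes.

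Mrpl50, a mitochondria-specific large subunit protein, had the lowest adjusted p of all members in this comparison. It measured -0.31, -0.43 and -0.55 in blood and 3.06, 2.52 and 3.15 in tumor, from 27 to 35 reads to 369 to 597 reads. The rise of 3.34 on the log2 scale (SE 0.20, adjusted p = 7.82e-06) is a 10.1-fold difference. On the exon scale, Mrpl50 went from 2.97 ± 0.25 in blood (SD, n = 3) to 30.7 ± 6.68 in tumor. The gene lies on the minus strand of chromosome 4 at 49512596 to 49521093 (GRCm38), 83 bp from the divergent start of Zfp189, and its exons overlap no other gene's. Zfp189 itself rose by less, with a log2 fold change of 0.97 (SE 0.33, adjusted p = 0.0353).

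Mrpl45 measured 1.29, 1.34 and 1.57 in tumor, 3.41 above blood on the log2 scale (SE 0.41, adjusted p = 0.000207). Mrps18b measured -4.38, -2.69 and -2.19 in blood and 1.03, 0.33 and 0.05 in tumor, a log2 fold change of 3.56 (SE 0.59, adjusted p = 0.00113) that rests on 1 to 6 reads per blood library. Only its tumor libraries exceeded the cutoff of the first filter, so Mrps18b passed it through the group where it was high. Under the filter on reads Mrps18b was also called higher, on both scalings. Mrpl38, a mitochondria-specific protein of the large subunit, measured -2.18, -1.37 and -0.95 in blood and 1.43, 1.32 and 1.51 in tumor, with a log2 fold change of 2.92 (SE 0.34, adjusted p = 0.000182). In each of these genes the lowest tumor library exceeded the highest blood library.

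Larger log2 differences appeared among members too low in FPKM for the first filter, where blood had few reads; Mrps27, Mrps5, Mrps6 and Mrpl52 are named after their values were seen. Mrps27, a pentatricopeptide repeat protein of the small subunit, measured -7.03, -6.56 and -6.31 in blood and -2.02, -1.81 and -1.81 in tumor. These were 2 to 4 reads against 108 to 160 reads, and the log2 fold change was 4.75 (SE 0.47, adjusted p = 7.78e-05). Mrps5, homolog of a bacterial protein near the decoding site, measured -2.93, -3.74 and -5.41 in blood and 0.17, -0.36 and 0.25 in tumor, a log2 fold change of 4.05 (SE 0.57, adjusted p = 0.000541). Mrps6, whose exons overlap Slc5a3, had the widest difference, 5.14 (SE 1.08, adjusted p = 0.00422), from -10.54, -7.97 and -5.92 in blood to -2.63, -3.34 and -3.06 in tumor. Its blood value came from 0, 1 and 4 reads, so the size of the change was poorly determined.

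The 5 members that fell were Mrpl33, Mrps15, Mrpl43, Mrpl10 and Mrps23. Mrpl33, a small protein of the large subunit with a bacterial homolog, measured 0.42, 0.02 and 0.19 in blood and -1.89, -2.12 and -2.33 in tumor, from 356 to 382 reads to 106 to 117 reads. It fell by 2.32 (SE 0.24, adjusted p = 0.0001) and remained lower by 1.88 on plain library totals (adjusted p = 0.000319). Only its blood libraries exceeded the cutoff of the first filter, so Mrpl33 passed it through the group where it was high. Under the filter on reads Mrpl33 was also called lower, on both scalings. Mrps15 dropped to 1.08, 0.56 and 0.46 in tumor, a change of -1.33 (SE 0.18, adjusted p = 0.000335). Mrpl43, a mitochondria-specific protein whose exons overlap Twnk over 33.4% of their bases, measured 4.92, 4.56 and 4.31 in blood and 3.48, 3.35 and 3.56 in tumor, a change of -1.13 (SE 0.18, adjusted p = 0.000839). Mrpl10 measured 3.21, 3.03 and 3.0 against 2.49, 2.15 and 2.30, a change of -0.77 (SE 0.11, adjusted p = 0.000524). Mrps23, a mitochondria-specific protein of the small subunit, measured 1.42, 1.29 and 1.17 against 0.79, 0.50 and 0.49, a change of -0.70 (SE 0.18, adjusted p = 0.00971). For Mrpl10 and Mrps23 the difference shrank to -0.32 and -0.25 on plain library totals and no longer passed (adjusted p = 0.0703 and 0.279). In all 5 genes every tumor library lay below every blood library. Under the filter on reads, Mrpl14 and Mrps21 also fell, and the Mrpl14 call did not pass on plain library totals.

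**Figure D3:**
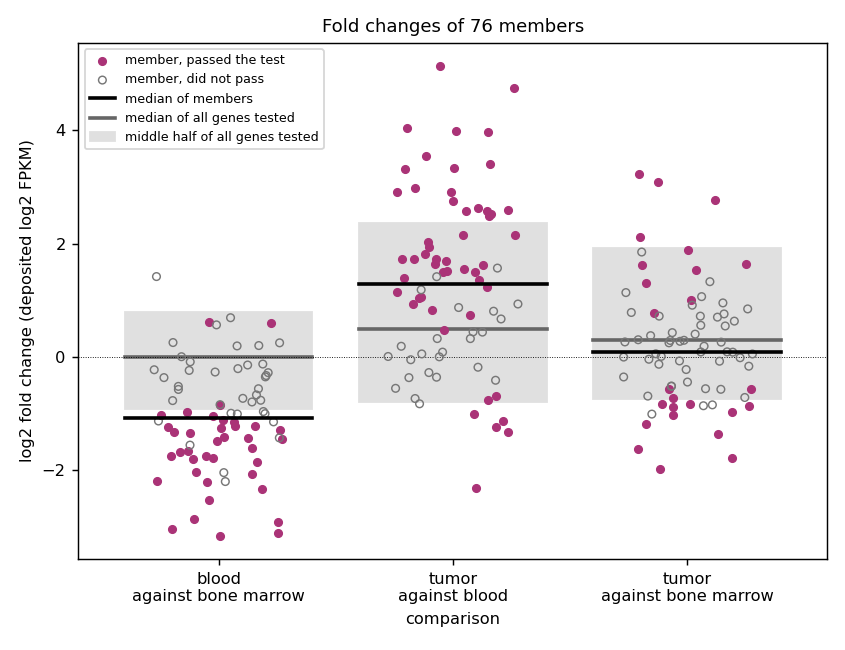
Log2 fold changes of the 76 members with reads in each comparison (y axis; filled, adjusted p under 0.05 by limma; open, not), with the median of members (black line), the median of all 17714 genes tested (gray line) and the span from their lower to their upper quartile (gray box). The members' median is below that of all genes in blood against bone marrow (-1.08 and 0.00), above it in tumor against blood (1.29 and 0.50) and slightly below it in tumor against bone marrow (0.09 and 0.29).

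Tumor neutrophils against bone marrow neutrophils showed members going both ways. Of the 42 members, 6 were higher and 10 lower in tumor, against 22.4% and 32.9% of all genes tested, and under the filter on reads 11 of 76 were higher and 14 lower, against 25.2% and 18.4%. The median log2 fold change of the 42 was -0.03 beside -0.21 for all genes tested with them, and that of the 76 was 0.09 beside 0.29, so the sign of the members' median relative to all genes depended on the filter. The split turned with the scaling, for members as for all genes: on plain library totals 12 of the 42 members were higher and 2 lower, against 33.1% and 21.2% of genes, and 22 of the 76 were higher and 4 lower, against 34.2% and 11.9%. Leaving out bone marrow replicate 3 left 6 of the 42 lower (all genes, 29.8%), and leaving out tumor replicate 1 left 7 of the 76 higher (all genes, 22.8%).

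Mrpl50 changed most among the 42, with 0.11, -0.03 and 0.36 in bone marrow against the tumor values above, a log2 fold change of 2.76 (SE 0.20, adjusted p = 2.04e-05). Like Mrpl38 and Mrps18b, Mrpl50 reached the first filter only with its tumor libraries, and the members counted as higher include them. The filter on reads also called these genes higher, on both scalings. Mrpl50 passed in each of the 35 fits that were run for it over filters, scalings and left-out libraries. Mrps18b, which passed the first filter only through tumor, measured -1.97, -1.16 and -1.83 in bone marrow. It was higher in tumor by 2.12 (SE 0.59, adjusted p = 0.0167), a call lost without bone marrow replicate 1 or tumor replicate 1 (adjusted p up to 0.0578). Mrpl38, at -0.16, -0.61 and 0.16 in bone marrow, was higher by 1.62 (SE 0.34, adjusted p = 0.00461). Mrpl17, homolog of a bacterial protein near the exit tunnel, measured 1.59, 1.19 and 0.88 in bone marrow, 1.91, 1.62 and 1.81 in blood, and finally 2.82, 2.36 and 2.40 in tumor. Its 3 groups did not overlap, and tumor exceeded bone marrow by 1.31 (SE 0.21, adjusted p = 0.00114), while the blood against bone marrow value of 0.56 did not pass (adjusted p = 0.0611). Mrpl9 measured 1.34, 1.67 and 1.90 in bone marrow and 1.22, 1.60 and 1.39 in blood, against 2.51, 2.5 and 2.91 in tumor. Its tumor libraries lay above all others, with a log2 fold change of 1.00 over bone marrow (SE 0.19, adjusted p = 0.0027). Mrpl37 measured 0.14, 0.29 and 0.96 in bone marrow and 1.31, 1.03 and 1.39 in tumor, and its call (0.78, SE 0.28, adjusted p = 0.0445) was lost when any 1 of 6 libraries was left out, with adjusted p values up to 0.139.

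Among the 10 of 42 that were lower, Mrpl33 changed most, from -0.21, -0.60 and -0.63 in bone marrow to its tumor values, a change of -1.63 (SE 0.24, adjusted p = 0.000779) that was -1.18 on plain library totals (adjusted p = 0.00437). Mrpl14, Mrpl33, Mrpl48 and Mrps23 were the 4 members called lower in tumor under both scalings with the filter on reads, whereas all 11 members called higher were called under both. Plain library totals moved the median of all genes from 0.29 to 0.72 in this comparison. That shift favors calls higher over calls lower, so these counts do not show which direction is firmer. Of the members left to the filter on reads, Mrpl52, a mitochondria-specific protein, measured -2.55, -3.74 and -1.60 in bone marrow, -1.13, -1.14 and -1.37 in blood, then 0.57, 1.33 and -0.09 in tumor. Its 3 groups did not overlap, and the tumor against bone marrow difference was 3.24 (SE 0.55, adjusted p = 0.00177) on 1 to 6 reads in bone marrow.

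**Figure D4:**
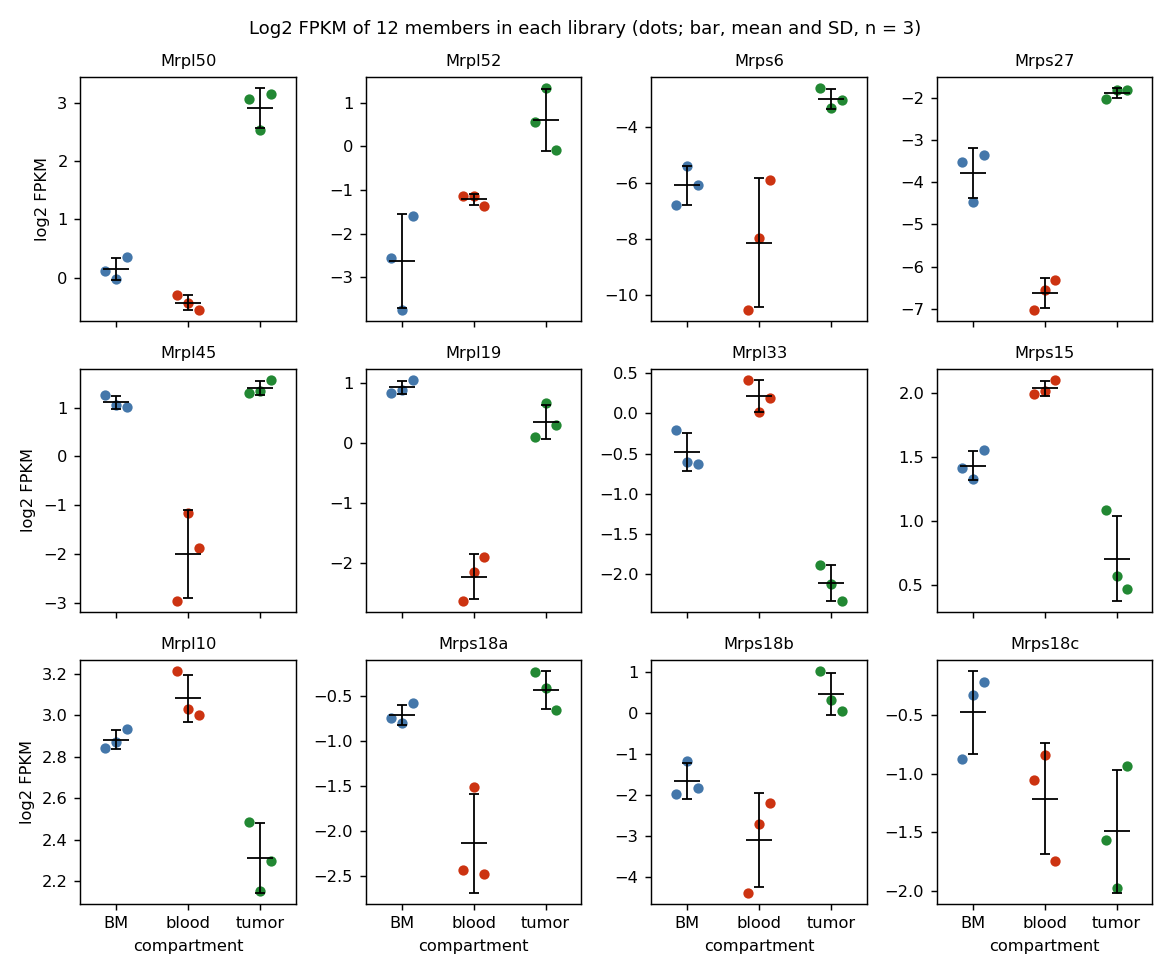
Log2 FPKM (y axis, own scale per panel) of 12 members in the 3 libraries of bone marrow (BM), blood and tumor; dots are libraries, bars the mean with the SD (n = 3). Mrpl50 is 2.52 to 3.15 in tumor and at most 0.36 elsewhere, Mrpl33, Mrps15 and Mrpl10 are lowest in tumor, and Mrps18a, Mrps18b and Mrps18c differ in their order.

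The 3 proteins related to bacterial S18 did not follow one course. Mrps18a, a component of the large subunit despite its name, measured -0.75, -0.80 and -0.59 in bone marrow, was at -2.43, -1.51 and -2.47 in blood and stood at -0.24, -0.42 and -0.66 in tumor. It fell by 1.42 in blood (SE 0.30, adjusted p = 0.009, filter on reads) and rose by 1.70 in tumor over blood (SE 0.30, adjusted p = 0.00184). Mrps18b, in the small subunit, was the member described above whose tumor libraries exceeded the other 6. Mrps18c, also in the small subunit, measured -0.88, -0.34 and -0.22 in bone marrow, -1.05, -0.84 and -1.75 in blood, and -1.57, -1.97 and -0.93 among tumor libraries, so its groups overlapped. No difference of Mrps18c passed (adjusted p from 0.0537 to 0.546), and its tumor against blood value was -0.28 (SE 0.37). Whether the 3 genes differ from one another in their changes was not tested.

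Of the other genes with a high deposited level, Mrpl36, a tiny protein of the large subunit, measured 3.29, 3.39 and 3.18 in bone marrow, 3.38, 3.32 and 2.31 in blood, and 3.30, 1.73 and 2.75 among tumor libraries. Its groups overlapped and no comparison passed (adjusted p from 0.2 to 0.63). Mrpl16, among the 4 lowest on the filtered deposited scale, measured -0.38, -0.21 and 0.27 in bone marrow, -0.97, -4.40 and -1.57 in blood, against 1.21, 0.27 and 0.30 in tumor. Blood replicate 2 had 1 read of Mrpl16, and the rise in tumor over blood (2.90, SE 0.82, adjusted p = 0.0153) was lost without tumor replicate 1 (adjusted p = 0.051).

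Grouped by subunit and descent, every class had a negative median between bone marrow and blood and a positive one between blood and tumor under the filter on reads. The 16 small subunit proteins with a bacterial homolog had medians of -0.93 and 0.94, with 7 lower in blood and 8 higher in tumor than blood, and the 10 mitochondria-specific ones -1.28 and 1.94, with 5 and 7. The 30 large subunit proteins with a bacterial homolog had medians of -0.84 and 0.71, with 12 lower in blood and 15 higher in tumor than blood. Their 19 mitochondria-specific partners with reads had medians of -1.23 and 1.5, with 12 and 14. Differences between the classes were not tested. Of all genes, 16.3% were lower in blood than in bone marrow. In tumor against blood, 32.4% of all genes were higher and 20.2% lower, which also serves the counts by promoter letters. By promoter letters, the 18 members with the NRF1 core had 10 higher and 4 lower in tumor than blood, the 12 with the ETS motif 6 higher and 2 lower, and the 12 with the YY1 motif 8 higher and 0 lower, beside 18 and 2 of the 30 tested members whose window held none of the 3 motifs. Summed RPM of the ETS members averaged 164 in bone marrow and 135 in blood, against 151 in tumor. In the same order they averaged 241, 180 and 337 with the NRF1 core and 88.6, 43.9 and 161 with the YY1 motif. Members with none of these motifs averaged 237, 149 and 406. Such sums are weighted by members with many reads, in the ETS list Mrpl33 and Mrpl43, which fell in tumor. Mrps36, which is now placed in the 2-oxoglutarate dehydrogenase complex and not in the ribosome, had at most 14 reads and passed in no comparison.

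The 23 divergent neighbours of members were counted beside them. Of these neighbours 6 were lower and 3 higher in blood than in bone marrow (all genes, 16.3% and 12.6%), with a median log2 fold change of 0.13, whereas 11 of the 23 members beside them were lower, with a median of -1.11. In tumor against blood, 9 neighbours were higher and 5 lower (median 0.52), near the shares of all genes (32.4% and 20.2%). Of their members, 13 were higher and 1 lower (median 1.15). The difference between neighbours and members was not tested.

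The rest of the mitochondrial translation apparatus was counted in the same way, under the filter on reads. Of all genes, 16.3% were lower and 12.6% higher in blood than in bone marrow. In tumor against blood, 32.4% of all genes were higher and 20.2% lower. Of 6 mitoribosome proteins listed under other symbols, 3 were lower in blood than in bone marrow and 5 higher in tumor than in blood. Ptcd3, a small subunit protein, fell by 0.88 in blood and rose by 2.08 in tumor, whereas Aurkaip1 had its lower value in tumor (-1.45 against blood). Of 13 translation factors, 6 were lower in blood and 7 higher in tumor than in blood, with none the other way. Tufm, the elongation factor that delivers aminoacyl-tRNA, averaged 2.98 log2 FPKM in bone marrow and 3.12 in tumor but 1.51 in blood. Its partner Tsfm averaged -1.83, -3.15 and -0.73 in the order bone marrow, blood, tumor, which the next means also keep.

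Of 26 assembly and rRNA modification factors, 9 were lower and 1 higher in blood (all genes, 16.3% and 12.6%). In tumor against blood, 13 of them were higher and 2 lower (all genes, 32.4% and 20.2%). C1qbp, a matrix protein needed for mitochondrial translation, averaged 1.82, -0.65 and 2.99. Rbfa, which helps to mature the small subunit, declined at both steps, from 4.32 to 2.62 and then 1.72. Of 17 mitochondrial aminoacyl-tRNA synthetases, 4 were lower in blood (all genes, 16.3%) and 12 higher in tumor than in blood (all genes, 32.4%). Their median changes were -1.25 and 2.45. Among 13 regulators of mitochondrial transcription and biogenesis, Myc averaged 1.81, -0.48 and 3.78 log2 FPKM and passed in all 3 comparisons. Tfam, which packages mitochondrial DNA, averaged -0.30, -1.75 and -0.03. Nrf1 itself, the factor whose motif was searched above, averaged -0.06, 0.27 and -0.50, with only its tumor against blood value passing (-0.76), and not on plain library totals (-0.32). Gabpa, an ETS factor, averaged 0.64, 0.29 and 0.48 and passed in none.

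**Figure D5:**
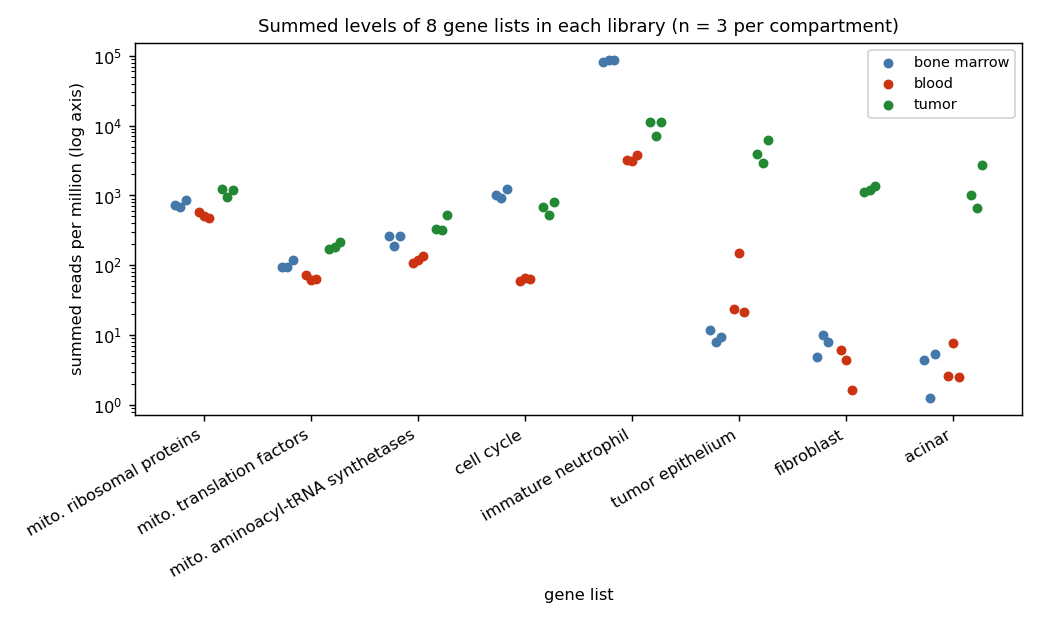
Summed RPM (log axis) of 8 gene lists in each library; dots are libraries, colors the 3 compartments, n = 3 each. The 77 members sum to 474 to 574 RPM in blood and 941 to 1224 RPM in tumor, and the epithelial, fibroblast and acinar lists rise from at most 149 RPM elsewhere to at least 659 RPM in tumor.

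In the neighbouring families, counts were made under the filter on reads. Of 84 cytosolic ribosomal protein genes, 27 were lower in blood than in bone marrow (all genes, 16.3%) and 44 higher in tumor than in blood (all genes, 32.4%). Oxidative phosphorylation subunits were lower in blood in 34 of 76 cases. In tumor against bone marrow 27 of these subunits were lower and 1 higher (all genes, 18.4% and 25.2%). That last split also turned on the scaling, with 8 lower and 8 higher on plain library totals (all genes, 11.9% and 34.2%). How these families differ from the members was not tested. The tumor libraries held the epithelial, fibroblast and acinar transcripts given above beside all of these values, and the neutrophil-defining list summed lower there than elsewhere. All 3 tumor libraries carried them, so no fit without such a library was possible, and their part in the tumor values of members was not tested.

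Outside the 42 members tested on the first filter, 35 had a log2 FPKM above 0 in fewer than 3 libraries: Mrpl1, Mrpl11, Mrpl13, Mrpl14, Mrpl21, Mrpl22, Mrpl23, Mrpl27, Mrpl3, Mrpl35, Mrpl39, Mrpl42, Mrpl46, Mrpl47, Mrpl48, Mrpl52, Mrpl53, Mrps10, Mrps11, Mrps18a, Mrps18c, Mrps21, Mrps22, Mrps24, Mrps25, Mrps27, Mrps28, Mrps31, Mrps33, Mrps34, Mrps35, Mrps36, Mrps5, Mrps6 and Mrps9. All but Mrpl53 passed the filter on reads. Fewer than 10 reads were counted for 3 to 6 members per bone marrow library, 19 to 26 per blood library and 0 to 3 per tumor library, so differences at the low end of blood carried the widest errors.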

How the data were processed

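Neutrophil RNA-seq libraries from bone marrow, blood and tumor of OT mice, 3 per compartment and each a pool of 5 mice, were compared; the methods describe 3 independent experiments. The genotype of the transplanted tumor line is not reported here. The authors deposited log2 FPKM per gene, and the submitters' processing notes name STAR 2.5.2b, featureCounts 1.5.0 and edgeR 3.8.6. Neither the strand setting nor the treatment of reads on overlapping genes is given in the sources used here. The deposited log2 values followed whole reads plus a constant over scaled library sizes, and for all 46517 genes whole reads were recovered within a tolerance of 0.01 reads, with the gene span or, for 4262 genes, another length as the divisor. Levels between genes were compared on the exon length of GENCODE M21 (GRCm38).

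All tests used limma (version 3.58.1, R 4.3.3; linear model, empirical Bayes with an intensity trend, Benjamini-Hochberg over all genes tested) on genes above 0 in at least 3 of the 9 libraries. The filter on reads asked for at least 5 reads in any library. The code was tested on simulated data. Promoter sequences came from RefSeq (GRCm38.p6). Members and gene lists were chosen with earlier results of these data known. Named members were the 4 of largest change among those past the threshold in each comparison, those called against the majority (at most 6), the 4 highest and 4 lowest by mean deposited value, and the Mrps18 paralogs. Mrpl55 stood in the bacterial-homolog list used here, although it is usually counted as mitochondria-specific. Mrps18a and Mrps18b stood in the mitochondria-specific lists and Mrps18c in a bacterial-homolog list, although all are related to bacterial S18. The paper describes bone marrow, blood and tumor neutrophils as taken from the same mouse, so pools may share animals. Whether equal replicate numbers mark such pools is not given in the labels. The main fit therefore used no pairing. Alternatives covered filters, pseudocounts, scaling, variance models, limma-voom on recovered reads, subsets of libraries and left-out libraries; limits of depth show in the reads per gene, and p-values measure the spread between pools.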

Additional observations from a re-analysis of the deposited data

How the results depend on the processing

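No member past the threshold changed direction under an alternative, but the members' median in tumor against bone marrow changed sign with filter and scaling. Percentages after a count are the shares of all genes called under the same setting. The first filter tested 42 members, the filter on reads and limma-voom tested 76, and the stricter filter fewer. In blood against bone marrow, 2 members were higher (20.6%) and 21 lower (23.6%), with a median of -0.99. The number higher was 0 with no filter (3.3%), 1 with a stricter filter of log2 FPKM over 2 (29.5%), 1 after quantile normalization (19.4%) and 4 after median centring (22.1%). It was 0 with a log2 fold change of at least 1 (12.4%). With 1 library left out it was 0 to 3 (16.3% to 21.8%), also under the filter on reads (9.55% to 13.4%). The number lower was 5 with the stricter filter (25.3%) and 36 with the filter on reads (16.3%). The median was -0.42 with the stricter filter, -0.55 with a pseudocount of 1 and -0.77 after quantile normalization. In tumor against blood, 24 were higher (28.1%) and 5 lower (34.5%), with a median of 0.90. The number higher was 7 with the stricter filter (26.1%), 44 with the filter on reads (32.4%) and 39 with limma-voom (33.1%). The number lower was 2 with the stricter filter (46.8%), 3 on plain library totals (24.6%) and 3 with a log2 fold change of at least 1 (24.3%). The median was 1.23 with no filter, 0.28 with the stricter filter, 1.29 with the filter on reads, 0.54 with a pseudocount of 1, 1.34 on plain library totals and 1.23 with limma-voom. In tumor against bone marrow, 6 were higher (22.4%) and 10 lower (32.9%), with a median of -0.03. The number higher was 3 with the stricter filter (24.2%), 11 with the filter on reads (25.2%), 12 on plain library totals (33.1%) and 14 with limma-voom (29.3%). The number lower was 5 with the stricter filter, 2 on plain library totals, 3 with a log2 fold change of at least 1 and 6 to 10 with 1 library left out; the median was -0.32 with the stricter filter and 0.42 on plain library totals.

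Within the filter on reads, plain library totals gave 4 lower in tumor against blood (14.1% of all genes), against 7 on the deposited scaling (20.2%). Limma-voom on plain totals gave 3 (14.9%). The median was 1.73 on plain totals (1.68 with limma-voom). Against bone marrow, in tumor, plain library totals gave 22 higher (34.2% of all genes) and 4 lower (11.9%), against 11 (25.2%) and 14 (18.4%). Limma-voom on plain totals gave 28 (39.2%) and 4 (13.5%), and the median was 0.54 with either. On the deposited scaling, 7 to 12 were higher there with 1 library left out (21.9% to 25.5% of all genes). A block for the replicate number gave 2 higher and 20 lower, 23 and 5, and 5 and 9 in the 3 comparisons. Under the filter on reads it gave 1 higher in blood against bone marrow. Deviations of same-numbered libraries from their group means correlated at -0.07 to 0.11. With so few libraries per group, these values cannot show whether same-numbered libraries share mice. Of the values of single genes under alternatives, 1709 stayed on the same side of the threshold, 37 passed it and 111 lost it. Of calls made by the filter each member passes, 23 of 37 lower in blood and 32 of 44 higher in tumor against blood held without any 1 library. No value could be given for repeated symbols, since none is repeated. Apart from the narrower gene sets of the stricter filters and the construction of the scalings, the cause was not tested. Low reads in blood limit the members named there.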
